A study of Mus musculus with 18 samples.

Results

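Eftud2, Acbd4, Nsf, Arf2, Cyb561, Cep112 and Gna13 are 7 genes of the distal part of mouse chromosome 11 that were picked because their values differed between cells with and without the estrogen receptor ERα. They were chosen by measured values of these same arrays, so their genotype differences are given as a description with no test. The 7 genes are 7 of 16593 genes with a probe, and they hold 13 of 25697 probes. Of these, 10 probes, with at least 1 for every gene, were detected on at least 3 arrays and were among the 13409 probes tested, which stand for 9088 genes. The other 3 probes, 1 of Acbd4 and 2 of Cep112, did not pass that filter and are described separately.

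There were 18 Illumina MouseRef-8 bead arrays of total RNA, with 3 arrays in each of 6 groups. ERαΔLysM cells came from mice with a floxed ERα gene and the Cre recombinase driven by the lysozyme M gene, which acts in cells of the myeloid lineage, and ERαf/f cells came from littermates with the floxed gene and no Cre. All mice were on a C57BL/6 background and, per the study's methods, 2 to 3 months old. Bone marrow cells were kept in M-CSF at 30 ng/ml for 4 days to give bone marrow-derived macrophages (BMMs), and in M-CSF with RANKL at 30 ng/ml for 2 more days to give pre-osteoclasts or 4 more days to give mature osteoclasts. The study's text adds that cells for the arrays were exposed to 17β-estradiol for some hours, a treatment that the labels do not name, so the genotypes were compared under estradiol in all groups. The sources used here do not state which arrays came from which mouse, so p-values measure the spread between these arrays. Values are the deposited log2 values, and a probe is called detected where its detection p against the negative control beads of the array is under 0.05.

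The 7 genes share a chromosome and not a pathway. Nsf is the ATPase that takes SNARE complexes apart after membrane fusion, and Arf2 is a small GTPase of the family that recruits coats to Golgi membranes. Gna13 is the α subunit of the G13 protein, which passes on signals from cell surface receptors. Cyb561 is a vesicle membrane protein that carries electrons from ascorbate. Eftud2 is the GTPase of the U5 snRNP of the spliceosome, Acbd4 binds acyl-CoA and Cep112 is a coiled-coil protein of the centrosome. In osteoclasts, vesicle traffic to the ruffled border and rearrangement of actin are known parts of bone resorption.

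Along chromosome 11, Eftud2, Acbd4, Nsf, Arf2, Cyb561, Cep112 and Gna13 were at places 628, 633, 642, 643, 652, 676 and 677 among 803 tested genes put in order with the RefSeq table of the GRCm38.p6 assembly. Nsf and Arf2 were direct neighbors in this order, as were Cep112 and Gna13. Nsf is read from the minus strand and Arf2 from the plus strand, with 12.7 kb between their annotated starts. RefSeq promoters of that assembly were at hand for 4 of the 7 genes. They are shown because these 4 genes include both neighboring pairs. Each line gives the 250 bases before an annotated start, 5′ to 3′ on the strand of the gene, and for Arf2 and Cep112, which have more than 1 start in the table, the start with the lowest coordinate.
Nsf, chr11:103954057-103954306, strand -: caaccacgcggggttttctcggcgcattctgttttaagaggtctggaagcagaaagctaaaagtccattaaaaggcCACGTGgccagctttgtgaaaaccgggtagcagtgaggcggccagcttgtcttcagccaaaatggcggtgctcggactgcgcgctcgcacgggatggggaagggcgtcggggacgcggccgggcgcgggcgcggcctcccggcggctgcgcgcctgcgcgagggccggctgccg
Arf2, chr11:103966475-103966724, strand +: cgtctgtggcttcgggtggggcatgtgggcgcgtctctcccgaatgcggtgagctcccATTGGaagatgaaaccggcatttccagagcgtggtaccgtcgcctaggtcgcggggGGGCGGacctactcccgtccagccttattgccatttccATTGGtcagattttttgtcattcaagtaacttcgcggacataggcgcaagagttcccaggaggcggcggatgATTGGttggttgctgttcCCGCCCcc
Cep112, chr11:108425016-108425265, strand +: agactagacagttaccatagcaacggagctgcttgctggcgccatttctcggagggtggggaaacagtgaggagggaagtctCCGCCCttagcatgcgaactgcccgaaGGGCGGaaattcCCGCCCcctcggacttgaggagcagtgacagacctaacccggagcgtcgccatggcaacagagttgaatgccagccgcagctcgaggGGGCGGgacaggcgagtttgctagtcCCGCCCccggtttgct
Gna13, chr11:109362544-109362793, strand +: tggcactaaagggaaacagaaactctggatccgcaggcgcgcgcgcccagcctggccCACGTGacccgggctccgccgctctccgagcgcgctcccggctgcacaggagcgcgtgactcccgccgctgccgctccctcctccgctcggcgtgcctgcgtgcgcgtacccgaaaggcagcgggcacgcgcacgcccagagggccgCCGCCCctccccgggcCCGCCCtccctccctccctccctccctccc

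Capitals mark matches on either strand to CCAAT, to the GC box GGGCGG or to the E-box CACGTG, none of which overlapped another. The Arf2 window held 3 CCAAT and 2 GC box matches, the Cep112 window 5 GC box matches, the Gna13 window 2 GC box matches and 1 E-box, and the Nsf window 1 E-box. Across all 32851 promoter windows of this length, 33.8% held CCAAT, 32.7% the GC box and 6.02% the E-box. None of the 4 windows held the estrogen response element, spelled as GGTCA, any 3 bases and TGACC, which was in 0.0639% of all windows, nor the shorter AGGTCA, which was in 14.0%. None held TATAAA either, which was in 12.4% of all windows. These matches describe letters only.

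Nsf was brighter on every ERαΔLysM array than on any ERαf/f array of the same stage. In BMMs its log2 values were 11.72, 11.68 and 11.74 in ERαΔLysM cells, against 11.29, 11.24 and 11.25 in ERαf/f cells. In pre-osteoclasts they were 12.17, 11.71 and 11.91 in ERαΔLysM cells, against 11.10, 11.11 and 10.98 in ERαf/f cells. In mature osteoclasts they were 11.94, 11.84 and 11.67 in ERαΔLysM cells, against 11.08, 10.81 and 11.04 in ERαf/f cells. The groups did not overlap at any stage, with the smallest gap, of 0.39, in BMMs. The log2 difference was 0.46 ± 0.12 (SE; 1.37-fold) in BMMs, 0.87 ± 0.12 (1.82-fold) in pre-osteoclasts and 0.84 ± 0.12 (1.79-fold) in mature osteoclasts.

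Arf2, the neighbor of Nsf, was close between the genotypes in BMMs and apart after RANKL. In BMMs its log2 values were 11.04, 11.14 and 10.97 in ERαΔLysM cells, against 10.83, 10.73 and 10.95 in ERαf/f cells. The gap between the groups was 0.02 there, so the lowest ERαΔLysM array and the highest ERαf/f array were almost level. In pre-osteoclasts they were 10.55, 10.48 and 10.34 in ERαΔLysM cells, against 9.51, 9.23 and 9.21 in ERαf/f cells. In mature osteoclasts they were 10.56, 10.59 and 10.41 in ERαΔLysM cells, against 9.49, 9.35 and 9.36 in ERαf/f cells. The gap was 0.83 in pre-osteoclasts and 0.92 in mature osteoclasts. The log2 difference was 0.21 ± 0.11 in BMMs, 1.14 ± 0.11 in pre-osteoclasts (2.21-fold) and 1.12 ± 0.11 in mature osteoclasts (2.17-fold).

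Gna13 was also brighter on all ERαΔLysM arrays. In BMMs its log2 values were 11.41, 11.45 and 11.54 in ERαΔLysM cells, against 11.24, 11.15 and 11.15 in ERαf/f cells. In pre-osteoclasts they were 12.16, 11.95 and 11.86 in ERαΔLysM cells, against 11.53, 11.21 and 11.12 in ERαf/f cells. In mature osteoclasts they were 12.26, 12.20 and 12.18 in ERαΔLysM cells, against 11.77, 11.50 and 11.57 in ERαf/f cells. The ERαf/f array of replicate 1 was the highest of its group at each stage and still stood below all ERαΔLysM arrays of that stage. The log2 difference was 0.29 ± 0.12 in BMMs, 0.70 ± 0.12 in pre-osteoclasts (1.63-fold) and 0.60 ± 0.12 in mature osteoclasts (1.51-fold).

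Cyb561 was not detected on any BMM array and had the widest separation of the 7 genes after RANKL. Its BMM values of 4.98, 4.74 and 4.74 in ERαΔLysM cells and 4.80, 4.92 and 4.57 in ERαf/f cells were all at background and overlapped. In pre-osteoclasts its log2 values were 8.51, 8.37 and 8.51 in ERαΔLysM cells, against 7.06, 6.71 and 6.41 in ERαf/f cells. In mature osteoclasts they were 10.44, 10.47 and 10.43 in ERαΔLysM cells, against 9.09, 9.25 and 8.999 in ERαf/f cells. The gap between the groups was 1.31 in pre-osteoclasts and 1.18 in mature osteoclasts. The ERαΔLysM arrays lay close together at the mature stage, with an SD of 0.02, against 0.13 for ERαf/f arrays. The log2 difference was 1.74 ± 0.14 in pre-osteoclasts (3.33-fold) and 1.34 ± 0.14 in mature osteoclasts (2.52-fold).

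Cep112 was dim, and 1 of its 3 probes was measurable. That probe (ILMN_3107945) was detected on 7 of 18 arrays, all of them of ERαΔLysM cells. In BMMs 1 ERαΔLysM array detected it, at 5.68, while the other two, at 5.03 and 5.12, and the ERαf/f arrays, at 5.12, 4.78 and 5.10, did not. In pre-osteoclasts it was detected at 5.44, 5.65 and 5.52 in ERαΔLysM cells, against 5.19, 4.85 and 4.86, all undetected, in ERαf/f cells. In mature osteoclasts it was detected at 6.48, 6.19 and 6.45 in ERαΔLysM cells, against 5.42, 4.87 and 4.91, all undetected, in ERαf/f cells. Since the ERαf/f level has only a bound, the ratio was at least 1.12-fold in pre-osteoclasts and at least 1.82-fold in mature osteoclasts, set against the dimmest signal called detected on each array or, where higher, the probe's own. The BMM difference was 0.28 with all arrays and 0.07 without ERαΔLysM replicate 1, the array that detected the probe. The other Cep112 probes (ILMN_2707627 and ILMN_3034257) were detected on 0 of 18 arrays, with log2 values between 4.47 and 5.10 over both, so they neither repeat nor contradict the pattern of the measurable probe.

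Acbd4 was the gene of the set with lower values in ERαΔLysM cells, and its 2 detected probes ran side by side. The first (ILMN_3150296) read 7.87, 7.99 and 8.08 in ERαΔLysM BMMs, against 8.63, 8.82 and 8.73 in ERαf/f BMMs. It read 7.95, 7.37 and 7.49 in ERαΔLysM pre-osteoclasts, against 8.18, 8.53 and 8.31 in ERαf/f pre-osteoclasts. It read 8.31, 8.20 and 8.38 in ERαΔLysM mature osteoclasts, against 8.96, 8.89 and 8.81 in ERαf/f mature osteoclasts. All ERαΔLysM arrays were below all ERαf/f arrays of their stage, by log2 differences of -0.74, -0.73 and -0.58 (SE 0.14 each) in the order of the stages. The second (ILMN_2689540) read 6.35, 6.76 and 6.61 in ERαΔLysM BMMs, against 7.52, 7.43 and 7.52 in ERαf/f BMMs. It read 6.83, 6.19 and 6.61 in ERαΔLysM pre-osteoclasts, against 7.14, 7.22 and 7.30 in ERαf/f pre-osteoclasts. It read 6.74, 7.004 and 7.40 in ERαΔLysM mature osteoclasts, against 8.07, 8.02 and 7.89 in ERαf/f mature osteoclasts. Again no groups overlapped, with log2 differences of -0.92, -0.68 and -0.95 (SE 0.17 each). In both probes ERαΔLysM replicate 1 was the highest ERαΔLysM pre-osteoclast array. After subtracting stage means, the 2 probes had a Pearson r of 0.93 over the 18 arrays, which share their RNA. The last probe (ILMN_3071515) was detected on 2 of 18 arrays, both of ERαf/f cells, at 5.39 in BMMs and 5.65 in mature osteoclasts, and its differences of -0.54, -0.26 and -0.16 are between values at background.

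Eftud2 had 3 probes detected on all 18 arrays, and they agreed in sign but not in size. Probe 2 (ILMN_2930364) read 9.69, 9.89 and 9.84 in ERαΔLysM BMMs, against 9.32, 9.01 and 9.07 in ERαf/f BMMs. It read 9.58, 9.55 and 9.46 in ERαΔLysM pre-osteoclasts, against 9.33, 9.25 and 9.35 in ERαf/f pre-osteoclasts. It read 9.01, 8.93 and 8.69 in ERαΔLysM mature osteoclasts, against 8.47, 8.62 and 8.56 in ERαf/f mature osteoclasts. These groups did not overlap at any stage, and the log2 differences were 0.67, 0.22 and 0.33 (SE 0.11 each). Probe 1 (ILMN_2669441) read 9.87, 9.83 and 9.87 in ERαΔLysM BMMs, against 9.64, 9.47 and 9.59 in ERαf/f BMMs. Probe 3 (ILMN_2604097) read 9.28, 9.29 and 9.54 in ERαΔLysM BMMs, against 9.19, 8.76 and 9.16 in ERαf/f BMMs. Both stood apart in BMMs, by 0.29 ± 0.12 and 0.33 ± 0.15, and overlapped at the later stages, where their differences were 0.07 and 0.08 for probe 1 and 0.04 and 0.11 for probe 3, all within their SE. The probe 3 difference in BMMs fell to 0.20 without ERαf/f replicate 2. The 3 probes correlated with r between 0.51 and 0.61 after subtracting stage means, so the probes of Eftud2 followed each other less closely than those of Acbd4. Where the sequences of the probes lie in their transcripts was not examined here.

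**Figure D1:**
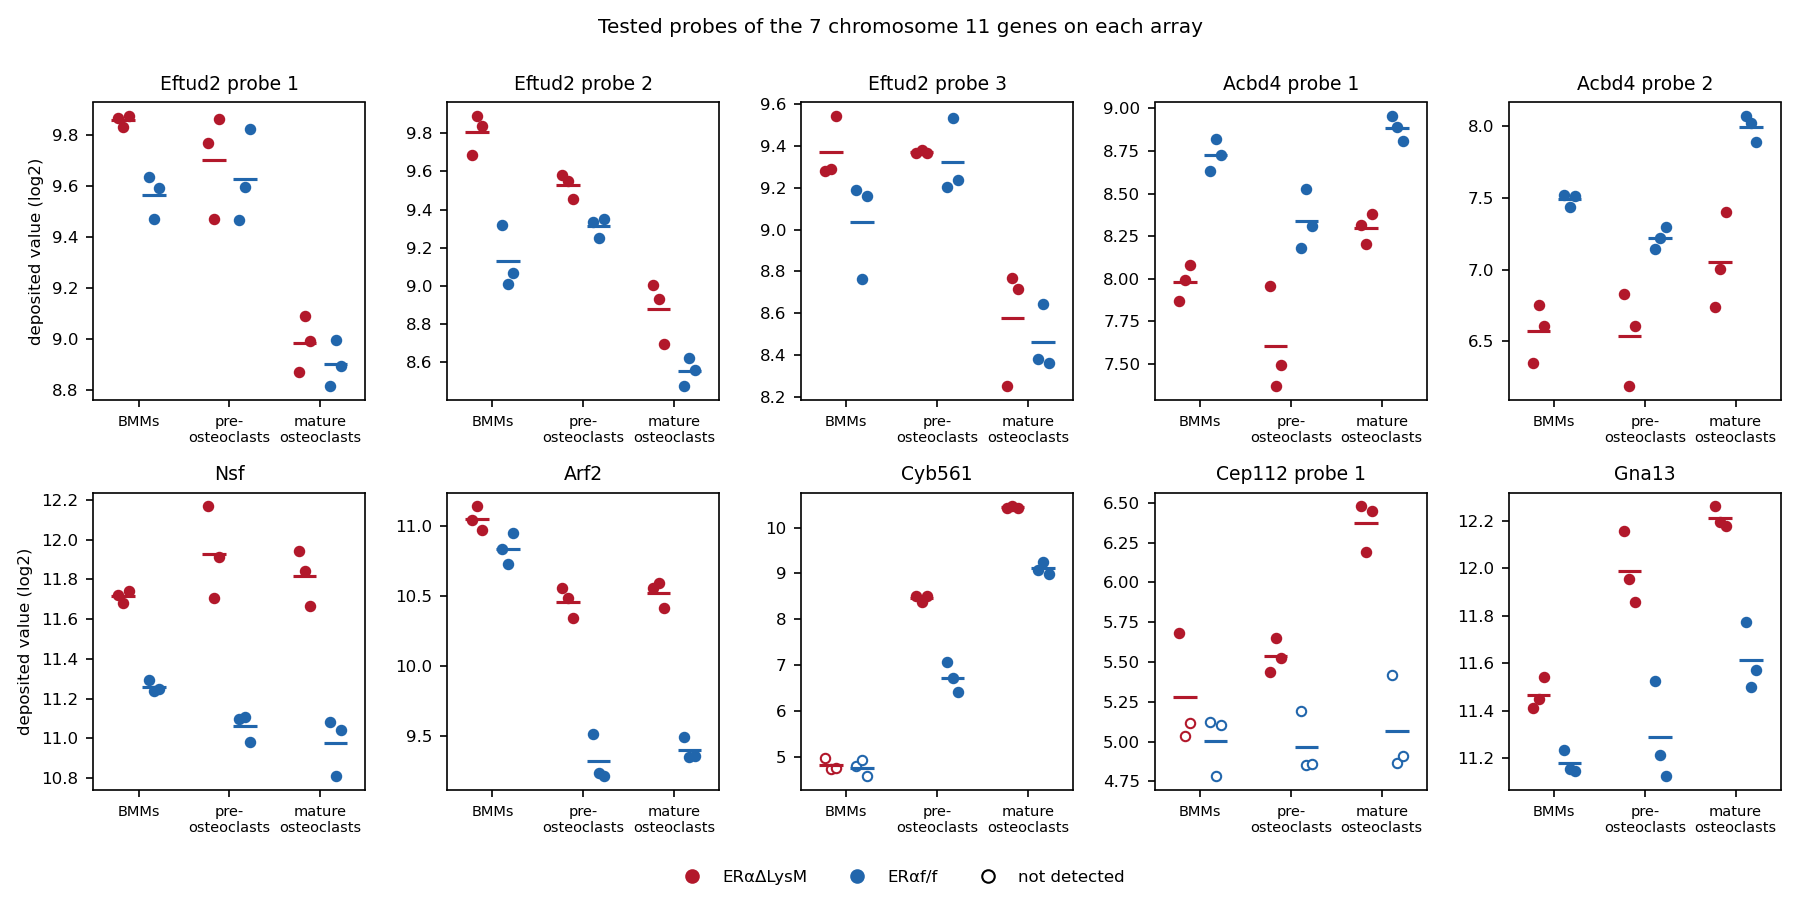
Deposited log2 value (y axis) of each of the 10 tested probes on each array, by stage, with ERαΔLysM arrays left of ERαf/f arrays, bars at the mean of 3 arrays and open circles where the probe was not detected. Cyb561 is at background in BMMs and apart after RANKL, Acbd4 is lower in ERαΔLysM cells with both probes, and the Eftud2 probes 1 and 3 overlap after BMMs.

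Between the genotypes, 3 of the 10 tested probes passed an adjusted p of 0.05 in BMMs (both Acbd4 probes and Eftud2 probe 2), where 0.321% of all tested probes did. In pre-osteoclasts 4 passed (Nsf, Arf2, Cyb561 and Gna13), where 0.0969% of all did, and in mature osteoclasts 5 passed (Acbd4 probe 2, Nsf, Arf2, Cyb561 and Cep112), where 0.172% did. Nothing is read from these counts, because the genes were picked on this contrast. By overlap alone, 8 of the 10 probes had separate genotypes at each stage, where 23.6% of all tested probes did in BMMs, 10.2% did in pre-osteoclasts and 14.2% did in mature osteoclasts. Separation in the same direction at all 3 stages was found for 6 of the 10, and for 0.418% of all tested probes. The 6 were Nsf, Arf2, Gna13, both Acbd4 probes and Eftud2 probe 2.

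**Figure D2:**
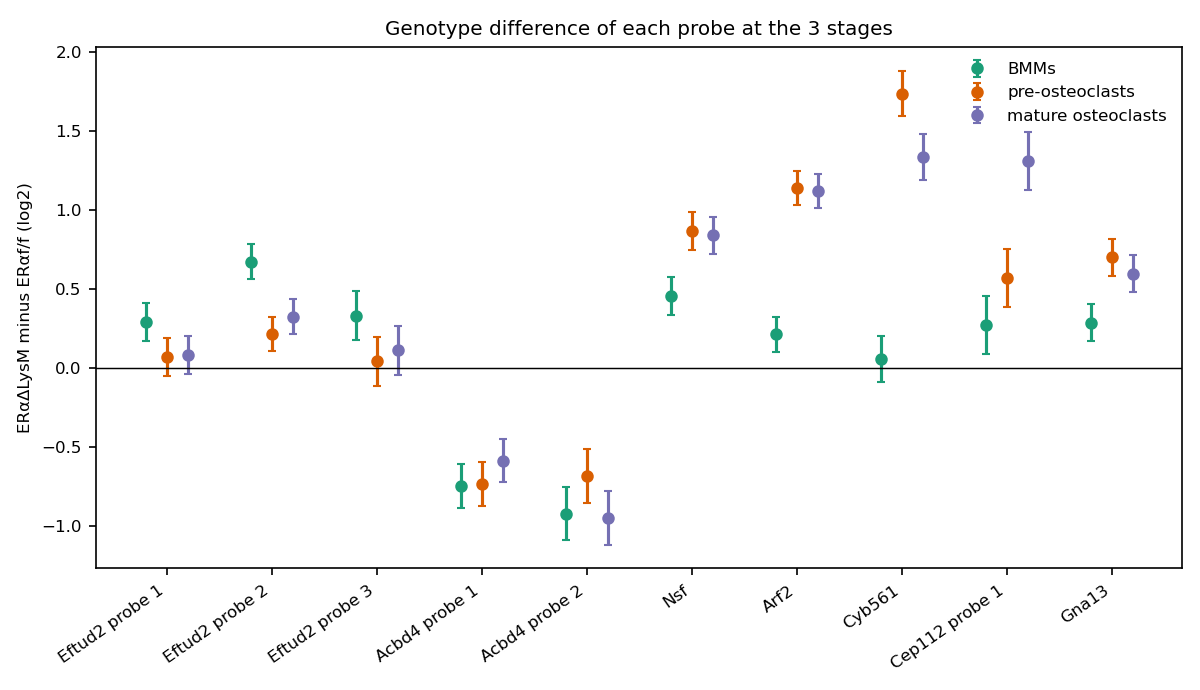
ERαΔLysM minus ERαf/f difference in log2 value (y axis, point ± SE from the fit) of each tested probe at the 3 stages, 3 arrays per group. Nsf, Arf2, Cyb561, Cep112 and Gna13 have larger differences after RANKL than in BMMs, Eftud2 probe 2 has its largest in BMMs, and Acbd4 is below 0 throughout. Cyb561 in BMMs and the ERαf/f values of Cep112 are at background.

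Single arrays were left out in turn. Over the 18 omissions the Nsf difference ranged from 0.75 to 0.98 in pre-osteoclasts, that of Arf2 from 1.09 to 1.24, that of Cyb561 from 1.58 to 1.91 and that of Gna13 from 0.62 to 0.82. The arrays differed in brightness, and the genotypes did so with them. Of 7 arrays with a median bead signal of 116 to 141, 6 were among the 9 ERαΔLysM arrays and 1 among the 9 ERαf/f arrays, while the other 11 lay between 163 and 191. Without these 7 arrays, which leaves 1 ERαΔLysM array per stage, the differences were 1.07 for Nsf, 1.18 for Arf2, 1.62 for Cyb561 and 0.79 for Gna13 in pre-osteoclasts and 0.86, 1.19, 1.36 and 0.58 in mature osteoclasts. The Acbd4 differences in pre-osteoclasts shrank most, to -0.40 and -0.35, and in mature osteoclasts they were -0.68 and -0.99. The part of brightness in the differences was not tested.

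Scaling mattered in BMMs. When each array was centred on its median instead of quantile normalized, all tested probes together had a median difference of -0.43 in BMMs, one of -0.20 in pre-osteoclasts and one of -0.13 in mature osteoclasts. On that scale Nsf, Arf2, Gna13 and Eftud2 probes 1 and 3 turned negative in BMMs, at -0.18, -0.41, -0.33, -0.25 and -0.19. They were still above the median shift of all probes there, by 0.25 for Nsf, 0.02 for Arf2, 0.09 for Gna13, 0.18 for Eftud2 probe 1 and 0.23 for Eftud2 probe 3. In pre-osteoclasts all 3 Eftud2 probes turned negative (-0.17, -0.02 and -0.20 for probes 1, 2 and 3), and in mature osteoclasts probes 1 and 3 did (-0.07 and -0.01). The Acbd4 probes stayed below 0 at all 3 stages, and Nsf, Arf2, Cyb561, Cep112 and Gna13 stayed above 0 in pre-osteoclasts and mature osteoclasts, with 0.55, 0.84, 1.49, 0.49 and 0.40 in pre-osteoclasts.

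Markers of neutrophils averaged higher on all ERαΔLysM than on all ERαf/f arrays in BMMs, while the ranges overlapped at both later stages. The mean log2 value of 9 of 10 listed markers on the array was 9.48 to 9.53 in ERαΔLysM BMMs, against 8.95 to 8.99 in ERαf/f BMMs. It was 8.35 to 8.86 in ERαΔLysM pre-osteoclasts, against 7.81 to 8.46 in ERαf/f pre-osteoclasts. In mature osteoclasts it was 7.26 to 7.53 in ERαΔLysM cells, against 7.005 to 7.36 in ERαf/f cells. In BMMs their summed level was 20476 to 22749 in ERαΔLysM cells, against 13631 to 15191 in ERαf/f cells. It overlapped between the genotypes in pre-osteoclasts but not in mature osteoclasts. At the mature stage Ngp (7.46 against 7.72) and Mpo (5.02 against 5.22, undetected) were lower in ERαΔLysM cells. The part of the neutrophil markers in the differences of the 7 genes was not tested. The mean over 10 osteoclast markers was also higher on all ERαΔLysM arrays of a stage. It was 5.87 to 5.90 in ERαΔLysM BMMs, against 5.76 to 5.81 in ERαf/f BMMs, where 6 of the 10 were undetected on all ERαΔLysM arrays and 4 on all ERαf/f arrays. It was 9.77 to 9.81 in ERαΔLysM pre-osteoclasts, against 9.63 to 9.75 in ERαf/f pre-osteoclasts, and 10.78 to 10.85 in ERαΔLysM mature osteoclasts, against 10.62 to 10.77 in ERαf/f mature osteoclasts. The widest difference of a single osteoclast marker in pre-osteoclasts was that of Calcr, 5.80 against 5.10, detected on 2 and 1 arrays. At the mature stage it was that of Itgb3, 6.04 against 4.95, undetected on all ERαf/f arrays. Itgb3 is itself a chromosome 11 gene that lies between the 7, and no mean of the markers was taken without it. Acp5, Ocstamp and Nfatc1 in pre-osteoclasts and Ctsk, Ocstamp and Oscar in mature osteoclasts were lower in ERαΔLysM cells. So were Acp5, Dcstamp, Ocstamp, Atp6v0d2 and Itgb3 in BMMs. The summed level of the osteoclast markers overlapped between the genotypes at both later stages, and its part in the differences was not tested. The means of the macrophage and of the osteoclast markers followed the labelled stages in both genotypes, but not every marker did. Atp6v0d2 was undetected on all arrays, and Itgb3 did not rise in ERαf/f cells (5.07, 4.99 and 4.95 in the order of the stages). Ctsk was lower in mature osteoclasts than in pre-osteoclasts in both genotypes. The 5 T cell markers on the array were undetected on all 18 arrays. In bulk RNA, more cells of a type and more RNA per cell cannot be told apart. Both ERα (Esr1) probes were undetected on all 18 arrays, so the deletion could not be checked here. Esr1 and Lyz2, the locus that carries Cre, are annotated to chromosome 10, not 11.

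Averaged over the genotypes, the 7 genes followed different courses along differentiation. Of the 10 tested probes, 4 passed limma's test between pre-osteoclasts and BMMs, where 56.0% of all tested probes did. Between mature osteoclasts and BMMs 9 passed, where 68.2% of all did, and between mature osteoclasts and pre-osteoclasts 8 passed, where 56.7% did. Nothing is read from these counts either, since they are over 10 probes of 7 genes, and Cyb561 and Cep112 passed the filter on detection only through groups where they are high. Each stage mean is over 6 arrays, 3 per genotype.

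Cyb561 had a higher mean at each later stage. Against BMMs, where it was at background, it was at least 4.74-fold higher in pre-osteoclasts and at least 21.6-fold higher in mature osteoclasts, which is given with no test because the probe passed the filter on detection through the later stages alone. In mature osteoclasts it was 4.55-fold above pre-osteoclasts (limma, adjusted p = 4.58e-11). The stage means were 9.78 ± 0.74 in mature osteoclasts, 7.59 ± 0.98 in pre-osteoclasts and 4.79 ± 0.15 in BMMs (SD, n = 6), with the later SDs holding the genotype difference. Between the later stages it climbed by 1.98 in ERαΔLysM cells and by 2.39 in ERαf/f cells.

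Arf2 fell after RANKL, by 1.05 ± 0.08 in pre-osteoclasts against BMMs (SE, limma, adjusted p = 4.11e-09) and by 0.98 ± 0.08 in mature osteoclasts against BMMs (adjusted p = 6.09e-09). The later stages differed by 0.07 ± 0.08 (adjusted p = 0.455). Within the genotypes, its level in pre-osteoclasts was below that in BMMs by 0.59 in ERαΔLysM cells and by 1.52 in ERαf/f cells, a gap that the choice of the gene already used and that was not tested. Gna13 in pre-osteoclasts was above BMMs by 0.52 in ERαΔLysM cells and by 0.11 in ERαf/f cells, a split that was not tested. In mature osteoclasts it was above BMMs by 0.75 and 0.44. Averaged over the genotypes, Gna13 rose by 0.32 ± 0.08 in pre-osteoclasts against BMMs (limma, adjusted p = 0.0037). It rose by 0.59 ± 0.08 in mature osteoclasts against BMMs (adjusted p = 7.76e-06) and by 0.28 ± 0.08 between the later stages (adjusted p = 0.0096). With median-centred arrays the first of these was 0.10 (adjusted p = 0.749) and the last was 0.43 (adjusted p = 0.0745), and without the 7 dim arrays the last was 0.14 (adjusted p = 0.406). Nsf did not pass in any of the 3 comparisons, with differences of 0.01, -0.09 and -0.10 (SE 0.08 each, adjusted p from 0.338 to 0.939). Its mean over both genotypes lay between 11.40 and 11.50 at the 3 stages, which averages opposite changes. Against BMMs it changed by 0.22 in ERαΔLysM and by -0.20 in ERαf/f pre-osteoclasts, and by 0.10 and -0.28 in mature osteoclasts. The choice of the gene already used this split, which was not tested.

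The 3 Eftud2 probes, which differed in their genotype values, agreed closely across stages. In mature osteoclasts against BMMs they fell by 0.77, 0.75 and 0.68 (limma, adjusted p of 4.42e-07, 1.97e-07 and 3.38e-05 for probes 1, 2 and 3). Against pre-osteoclasts they fell by 0.72, 0.71 and 0.83, and between pre-osteoclasts and BMMs none passed (adjusted p from 0.285 to 0.674). The Acbd4 probes both rose in mature osteoclasts against pre-osteoclasts, by 0.62 (adjusted p = 4.88e-05) and 0.64 (adjusted p = 0.000254). Against BMMs they rose by 0.24 (adjusted p = 0.0400) and 0.49 (adjusted p = 0.00173), and the first of these passes was lost when any of 8 single arrays was left out (adjusted p up to 0.0902). With median-centred arrays the rises against BMMs were -0.14 and 0.11 (adjusted p = 0.576 and 0.656) and those against pre-osteoclasts 0.44 and 0.43 (adjusted p = 0.0679 and 0.0755), so none of the 4 passed on that scale. In pre-osteoclasts against BMMs probe 1 fell by 0.38 (adjusted p = 0.00315), which was 0.25 without the 7 dim arrays (adjusted p = 0.154), while probe 2 gave -0.15 (adjusted p = 0.308). Cep112 averaged 0.58 more in mature osteoclasts than in BMMs, which is given with no test because only ERαΔLysM arrays lift the probe above background and through the filter, with changes of 1.10 in ERαΔLysM cells and 0.06 in ERαf/f cells.

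**Figure D3:**
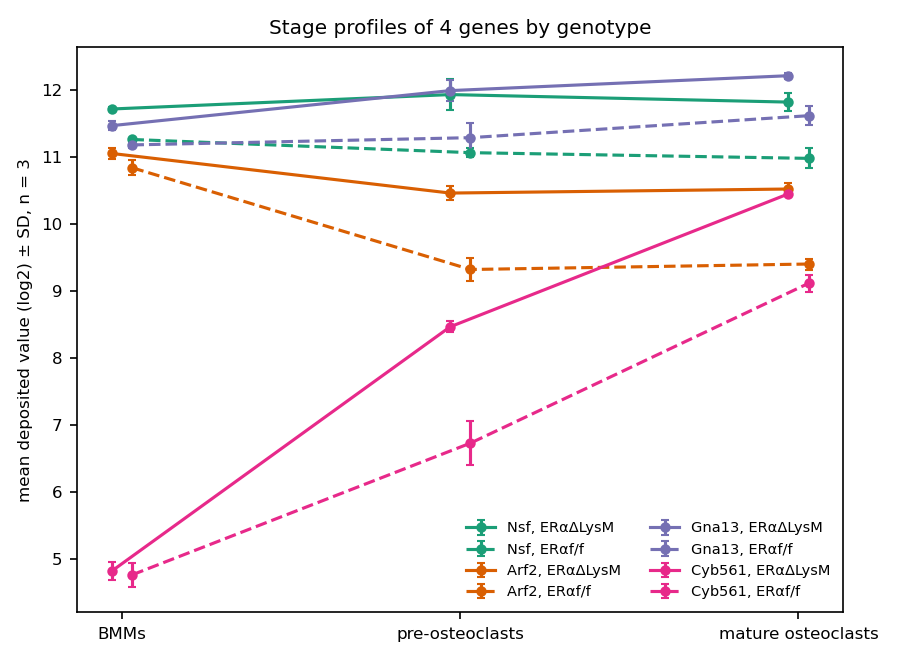
Mean log2 value ± SD of 3 arrays (y axis) of Nsf, Arf2, Gna13 and Cyb561 in BMMs, pre-osteoclasts and mature osteoclasts, solid for ERαΔLysM and dashed for ERαf/f cells. Cyb561 climbs at both steps in both genotypes and Arf2 drops after BMMs. The Nsf means after BMMs are higher in ERαΔLysM cells and lower in ERαf/f cells than in BMMs.

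The likeness of each gene to others was taken over arrays. For each gene the 3 genes most like it were taken by Pearson r over the 18 arrays after subtracting stage means, which is a description, since arrays share genotype and brightness and the 7 genes were picked on a genotype difference that these values still hold. A high r among them follows in part from that choice. Nsf was most like Gna13 (0.95), Arf2 (0.94) and Dcaf7 (0.92), a chromosome 11 gene that lies between the 7. Arf2 was most like Cyb561 (0.96), Gna13 (0.95) and Nsf. Cyb561 was most like Arf2, Tnfrsf9 of chromosome 4 (0.91) and Gna13 (0.91), and Gna13 like Nsf, Arf2 and AU040320 of chromosome 4 (0.91). Cep112 was most like Plxdc1 (0.89), Arf2 (0.86) and Gna13 (0.82), all on chromosome 11. The genes most like Acbd4 probe 1 were Cox18 of chromosome 5 (0.90), Cdk13 of chromosome 13 (0.90) and Pdlim5 of chromosome 3 (0.88). Those most like Eftud2 probe 1 were Ndufa4 of chromosome 6 (0.81), U2af2 of chromosome 7 (0.81) and Sec61a2 of chromosome 2 (0.80). Neither of these probes, the brightest of their genes, had a chromosome 11 gene among its 3. The other Acbd4 and Eftud2 probes were not ranked in this way. With Nsf, Arf2, Cyb561, Cep112 and Gna13, Eftud2 probe 1 had an r of 0.18 to 0.42 and the Acbd4 probes had an r of -0.83 to -0.70. With the same genes, Eftud2 probe 2 had an r of 0.44 to 0.70 and probe 3 one of 0.15 to 0.27.

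Most genes between them on the chromosome did not pass between the genotypes. Of 43 other tested genes from Eftud2 to Gna13, limma called 0 in BMMs, 0 in pre-osteoclasts and 1 at the mature stage, by their brightest probe. At an unadjusted p under 0.05 there were 12, 2 and 5 of them in the same order, or 27.9%, 4.65% and 11.6%, where 13.3%, 8.14% and 7.03% of all tested probes were. The called gene was Itgb3, the β3 integrin of osteoclasts, which averaged 6.04 in ERαΔLysM mature osteoclasts and 4.95 in ERαf/f mature osteoclasts, a log2 difference of 1.09. It was detected on 3 ERαΔLysM and 0 ERαf/f arrays of that stage and on 4 of 18 arrays in all, so it could not have passed the filter on detection without the group where it is high, and nothing is read from its call. With only a bound for ERαf/f cells, the ratio was at least 1.45-fold, and no neighbor passed under 9 of 29 alternatives, 4 of which left out a single mature osteoclast array (ERαΔLysM replicates 1 and 3, ERαf/f replicates 1 and 2). The median differences of the 43 genes were near 0, at 0.00, -0.03 and 0.06 in the order of the stages, beside 0.00, -0.01 and -0.01 for all tested probes. Kif18b and Dcaf7, named after their values were seen, were the 2 genes among the 43 with a brightest probe separated in the same direction at all 3 stages. Kif18b, a kinesin, had 2 such probes with opposite signs, averaging 0.40 and -0.43 over the stages, while its last probe overlapped.

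Of the 56 probes separated in the same direction at all 3 stages, 21 were on chromosome 11, from 18 genes, and 6 of them were probes of the 7 genes. Since those 6 were picked on this difference, shares are given without the 7 genes. The part of the chromosome was picked along with them on these same arrays. The shares, places and ranks that follow are therefore a description and not independent of that choice. The other 15 were 1.32% of the 1140 other tested probes of the chromosome, beside 0.895% on chromosome 4 and 0.851% on chromosome 19. In order along chromosome 11, 6 of the other 15 fell in the genes at places 601 to 700, where all 7 genes lie, 4 in the 100 genes before, 4 in the 100 genes after and 1 elsewhere. Of the 21 probes, 11 were higher and 10 lower in ERαΔLysM cells. Ranked by the size of the mean difference over the stages, the first 9 of the 56 were all on chromosome 11, and 4 of them were probes of the picked genes. They were Plxdc1 (1.10), Lsm12 (-1.04), Acbd4 probe 2 (-0.85), Abca5 (-0.85), Arf2 (0.83), Nsf (0.72), Med1 (-0.69), Stac2 (-0.69) and Acbd4 probe 1 (-0.69), of which Plxdc1, Lsm12, Abca5, Med1 and Stac2 were named after their values were seen. The ERαΔLysM means of Abca5, 4.68, 4.64 and 4.77 in the order of the stages, were at background. With median-centred arrays 30 probes were separated at all 3 stages, 4 of them on chromosome 11, which holds 1150 of the 13409 tested probes. Those 4 were not divided into probes of the 7 genes and others.

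**Figure D4:**
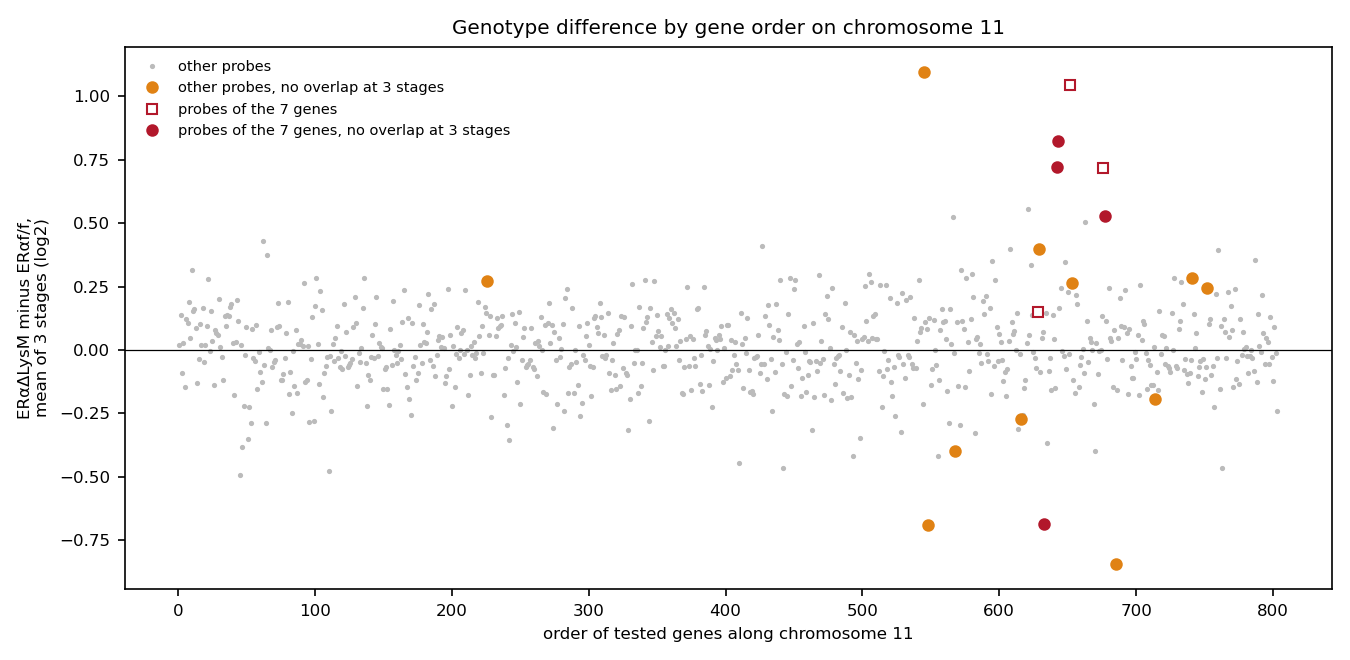
Mean ERαΔLysM minus ERαf/f difference in log2 value over the 3 stages (y axis) of the brightest tested probe of each of 803 genes, in their order along chromosome 11 (x axis). The probes separated at all 3 stages gather from place 545 on, on both sides of 0, with 1 exception at place 226, while most genes between them lie near 0. With median-centred arrays fewer probes of the chromosome were separated. Eftud2, Cyb561 and Cep112 are open squares because their brightest probe overlapped in at least 1 stage.

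**Figure D5:**
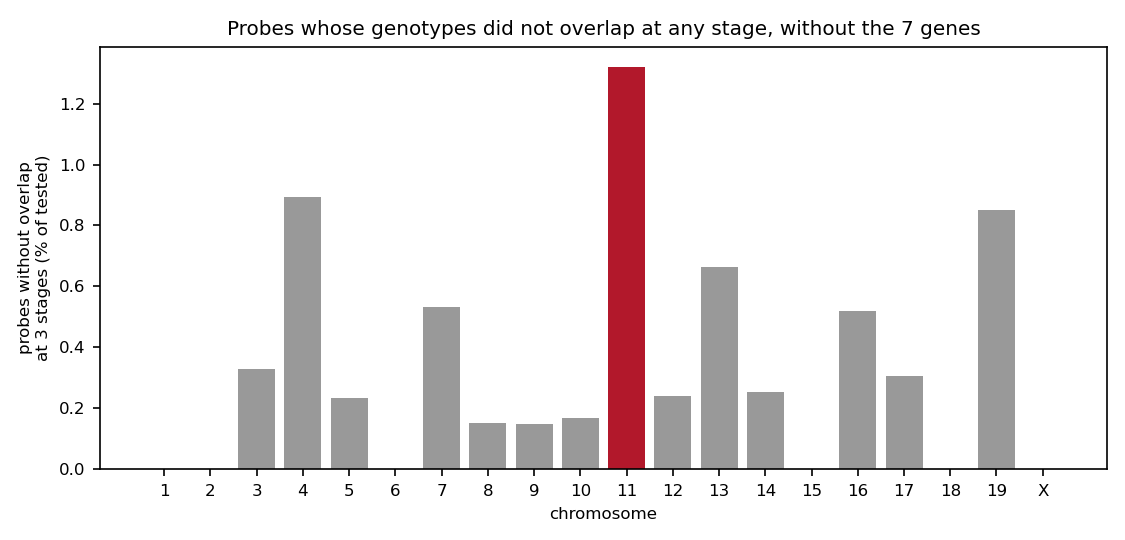
Share of tested probes whose genotypes did not overlap in the same direction at all 3 stages (y axis, percent) on each chromosome (x axis), without the probes of the 7 genes. Chromosome 11 has 1.32%, above 0.895% on chromosome 4. Its distal part was picked on these same arrays, so this is a description.

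Genes that work with the 7 were also measured. Of 178 genes in 7 lists of partners, 133 were tested, of which 1 passed between the genotypes in BMMs and 0 passed at each later stage, with medians of 0.00 at all 3 stages. At an unadjusted p under 0.05 there were 21 in BMMs (15.8%), 7 in pre-osteoclasts (5.26%) and 9 at the mature stage (6.77%), beside the shares of all probes given for the neighbors. The partners and the neighbors share genes, since Gosr2 and Cep95 are in both. Of 29 tested SNARE and SNAP genes, partners of Nsf, Snap47 was higher in BMMs, averaging 7.31 in ERαΔLysM cells and 6.65 in ERαf/f cells (0.66 ± 0.13, limma, adjusted p = 0.0487), and 0 others passed at any stage. Snap47 is also on chromosome 11, at place 210, outside the stretch of the 7 genes. Snap47 was close to the threshold, and no partner gene passed in BMMs under 19 of 29 alternatives, 16 of which left out a single array. None passed among 22 ARF family and regulator genes, 22 genes of the U5 and tri-snRNP, 7 cytochrome b561 and ferrireductase genes, 18 acyl-CoA binding and peroxisome genes and 18 centrosomal CEP genes. The largest differences in these lists were 0.41 for Arfgap1 and 0.42 for Snrpd2, both in BMMs. They were 0.49 for Cyb561d2 in BMMs and 0.62 for Abcd4 in mature osteoclasts. Cep135, of the centrosomal list, had the widest difference of all partners, -1.60 ± 0.30 in pre-osteoclasts, with means of 6.70 in ERαΔLysM cells and 8.30 in ERαf/f cells (limma, adjusted p = 0.0601).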

How the data were processed

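Total RNA of the 18 samples was hybridized by the authors to Illumina MouseRef-8 beadchips. The chip is version 1 per the paper, while genes were assigned to probes with the version 2 platform annotation. The authors deposited the mean bead intensity of each probe, with no background subtraction, and a detection p-value for each probe against the negative controls of its array. They also deposited log2 values, and these were the values analyzed. The paper names the lumi package for preprocessing and normalization. Values recomputed from the intensities with neqc in limma differed from the deposited log2 values by 0.0281 at most, so these were nearly the output of neqc. Of 26529 rows, 832 (3.14%) had no probe ID and were left out.

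A model with a mean for each of the 6 groups was fitted to 13409 probes (detection p under 0.05 on at least 3 arrays) with limma 3.58.1 in R 4.3.3, with 12 residual and 3.69 prior degrees of freedom, and p-values were adjusted over all tested probes by the Benjamini-Hochberg method at a threshold of 0.05. The number of arrays limits the precision, with a median SE of 0.171 for a genotype difference. In data simulated for the genotypes in BMMs with these 13409 probes, the fit recovered 36 of 50 changes of 1 log2 unit and 14 of 50 changes of 0.5. Of the tested probes, 12632 carried a gene symbol and 777 did not, and 12625 matched RefSeq (GRCm38.p6), which gave chromosomes and gene order. The deposited files name no genome build.

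The genes and the partner lists were chosen with earlier results of these data known. The named genes were the 7 genes, the 3 genes most like each, up to 2 partners of each list that passed in each direction or the largest difference, up to 4 neighbors that passed in each direction, Esr1 and Lyz2. Of the 7 partner lists, 1 counts in the totals and is not reported here on its own. The brightest tested probe stood for a gene in lists. The alternatives were neqc values (offset 16), no background correction, median-centred arrays, other filters, array weights and another prior. The others were fits within stages, replicate blocks, the mean of a gene's probes and leaving out each array. The neqc values differed from the deposited ones by 0.0281 at most, so that alternative nearly repeats the main fit. Leaving out the 7 arrays with a median signal under 150 and the count of probes separated at all 3 stages were added after seeing the data.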

Additional observations from a re-analysis of the deposited data

How the results depend on the processing

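The Acbd4 differences were below 0 under every alternative run (-1.33 to -0.31), and those of Nsf, Arf2, Cyb561, Cep112 and Gna13 after RANKL were above 0 (0.18 to 1.91). The number of probes passing between the genotypes in limma was 43 in BMMs, with 13 passing in pre-osteoclasts and 23 at the mature stage. It was 190 in BMMs with no background correction, 786, 4 and 2 at the 3 stages with median-centred arrays, 27 in BMMs with no filter, 133 in BMMs with a trended robust prior, and 300 in BMMs and 5 in pre-osteoclasts with array weights. It was 0 at each stage when only the 6 arrays of a stage were fitted, and 0 at each stage without the 7 dim arrays, both of which have fewer samples, with 2288, 685 and 1045 probes at an unadjusted p under 0.05 with the arrays of a stage alone and 1293, 1024 and 1006 without the dim arrays. Leaving out single arrays gave 4 (without ERαΔLysM BMM replicate 2) to 38 in BMMs, 5 (without ERαΔLysM pre-osteoclast replicate 2) to 15 in pre-osteoclasts and 8 (without ERαf/f mature osteoclast replicate 1) to 27 in mature osteoclasts. The cause of these changes was not tested.

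Partner genes passing in BMMs numbered 1, against 3 with no background correction, 7 with median-centred arrays, 3 with array weights and 0 with no filter or without the 7 dim arrays, and 0 to 1 over single omissions. In pre-osteoclasts they numbered 0, against 1 with no background correction, with median-centred arrays, with detection on at least 9 arrays and with detection p under 0.01, and 0 to 1 over single omissions, as in mature osteoclasts. Chromosome 11 neighbors numbered 2 in BMMs with median-centred arrays. In mature osteoclasts their count of 1 became 0 with no background correction, with median-centred arrays, with either stricter filter and without the 7 dim arrays, and was 0 to 1 over single omissions. Probes separated at all 3 stages numbered 30 with median-centred arrays, against 56, and those on chromosome 11 numbered 4, against 21. Omissions were not run for that count, since separation is easier with fewer arrays.

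Of the members' genotype differences, 30 in all, 20 moved by more than the replicate SD with median-centred arrays, 12 with no background correction and 7 without the 7 dim arrays. Between mature osteoclasts and pre-osteoclasts 8 member probes passed, against 4 with median-centred arrays. There the change of Acbd4 probe 1 in mature osteoclasts against BMMs reversed, at -0.14 (limma, adjusted p = 0.576) against 0.24. Over single omissions the number passing was 4 in pre-osteoclasts against BMMs, 8 to 9 in mature osteoclasts against BMMs and 8 between the later stages.

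Arrays with the same replicate number did not deviate together as a rule (r from -0.23 to 0.11 between stages of a genotype, and from -0.11 to 0.36 between genotypes of a stage, where 1 of 9 pairs was over 0.1). With a replicate block 23 probes passed in BMMs, 13 passed in pre-osteoclasts and 22 at the mature stage, 0 partner genes passed in BMMs, and Acbd4 probe 1 no longer passed between mature osteoclasts and BMMs (limma, adjusted p = 0.0556). With a replicate block within genotype the counts were 43, 10 and 23. Signal over background limits Cyb561 in BMMs and Cep112 in ERαf/f cells, where only a bound is known.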
